A study of Mus musculus with 11 samples.

Results

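The open chromatin of 9 genes of the Hedgehog pathway and the Shh locus was followed in fetal mouse lung epithelium that lacked both Prdm3 (also called Mecom) and Prdm16, a pair of related zinc-finger transcriptional regulators. The genes were Shh, its long-range neighbour Lmbr1, Ptch1, Hhip, Smo, Sufu, Gli1, Gli2 and Gli3. A region belonged to one of them when that gene was the nearest protein-coding gene body and lay at most 100 kb away. This rule gave 107 of the 83252 regions tested in the series, after 16 of the 123 regions found at these genes had been left out because fewer than 3 libraries had a peak there. Chromatin accessibility was measured by ATAC-seq, in which a transposase inserts sequencing adapters into open DNA, in 5 Prdm3/16KO libraries and 6 Control libraries. In both groups the lungs were taken at E17.5 and the epithelial cells were captured with magnetic beads against the surface protein EpCAM.

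The knockouts came from Prdm3fl/flPrdm16fl/wtShhCre+ males mated to Prdm3fl/flPrdm16fl/fl females, so that the floxed genes were deleted wherever Shh had been active, which includes the lung epithelium. The ShhCre allele is itself an insertion into Shh that inactivates the copy carrying it, so knockouts had a single working copy of Shh. The labels call the other group Control and do not say which alleles or how many Cre copies it carried; an effect of losing Prdm3 and Prdm16 and an effect of the Cre allele at Shh therefore cannot be told apart. Nor do the labels say whether each library came from its own animal, so the p-values measure the spread between libraries.

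Hedgehog signalling starts when a secreted ligand binds the receptor PTCH1, which then stops holding back the membrane protein SMO. SMO in turn releases the GLI transcription factors from the inhibitor SUFU, and the pathway's own targets include Ptch1, Gli1 and Hhip. In the developing lung the epithelium makes SHH and the surrounding mesenchyme is the main tissue that responds to it.

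Each library's deposited peaks were ranked by strength and the 72935 strongest were used, the length of the shortest list. A region's rank score is near 1 where its peak was among the strongest of the library, 0.5 in the middle of the list and 0 where no peak was used. Lists held 72935 to 85704 peaks in the knockouts and 79525 to 112297 in the controls. The number of reads behind them is unknown, so a score is a place in a list and not an amount of open DNA. At the gene ends of 6 epithelial genes (Epcam, Cdh1, Nkx2-1, Krt8, Krt18 and Elf3) every library of both groups had a peak. The endothelial genes Pecam1, Cdh5 and Tie1, the immune genes Ptprc and Csf1r and the mesenchymal genes Pdgfra and Tbx4 were at 0 in all 11 libraries. Summed scores of the 6 mesenchymal genes ran from 0.989 to 1.42 in knockouts and from 1.01 to 1.41 in controls, and came mostly from Col1a1 and Col1a2. Kdr alone of 4 endothelial genes had a peak (summed 0.275 to 0.588 in knockouts, 0.308 to 0.593 in controls). The 4 immune genes summed to 0.699 to 0.784 in knockouts and 0.699 to 1.11 in controls. Among them, Spi1 had a peak in every library (0.699 to 0.784 in knockouts, 0.637 to 0.719 in controls). Cd68 had none in any knockout and reached 0.401 in controls, with control 5 at 0. The 4 alveolar type 2 genes (Sftpc, Sftpb, Lamp3 and Abca3) summed to 1.61 to 2.27 in knockouts and 2.23 to 2.67 in controls, and the 4 alveolar type 1 genes, of which Pdpn was at 0 throughout, to 1.86 to 2.15 in knockouts and 2.1 to 2.31 in controls. The part of this in the differences at Hedgehog genes was not tested, and in such bulk samples fewer cells of a type and less open chromatin per cell cannot be told apart.

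The promoters of 7 of the 9 genes were in the RefSeq table of build GRCm38.p6, each as 250 bases before to 50 bases after the gene start. Those of Lmbr1 and Sufu are shown because their start regions passed the test in opposite directions. That of Ptch1 is shown because no library of either group had a used peak over it. The Ptch1 promoter of this table lies inside the gene body, whose upper end had a peak in every library. The promoters shown lie at chr5:29378341-29378640 on the minus strand, chr19:46396646-46396945 on the plus strand and chr13:63565686-63565985 on the minus strand. Capitals mark the GC box, CCGCCC or its reverse complement GGGCGG, and, in Sufu, the reverse complement CACTTG of the NKX2-1 core CAAGTG.

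Lmbr1: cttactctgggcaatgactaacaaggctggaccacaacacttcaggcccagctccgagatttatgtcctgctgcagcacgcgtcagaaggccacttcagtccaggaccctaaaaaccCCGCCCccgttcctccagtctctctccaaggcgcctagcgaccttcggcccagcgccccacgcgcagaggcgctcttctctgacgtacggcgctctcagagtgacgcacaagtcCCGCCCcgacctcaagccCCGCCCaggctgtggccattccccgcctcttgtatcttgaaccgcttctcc

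Sufu: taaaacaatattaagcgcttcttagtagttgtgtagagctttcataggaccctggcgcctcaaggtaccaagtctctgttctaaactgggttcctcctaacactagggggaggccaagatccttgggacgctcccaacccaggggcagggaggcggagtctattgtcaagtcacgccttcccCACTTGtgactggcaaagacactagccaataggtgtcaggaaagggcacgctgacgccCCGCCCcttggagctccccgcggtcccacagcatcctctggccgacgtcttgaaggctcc

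Ptch1: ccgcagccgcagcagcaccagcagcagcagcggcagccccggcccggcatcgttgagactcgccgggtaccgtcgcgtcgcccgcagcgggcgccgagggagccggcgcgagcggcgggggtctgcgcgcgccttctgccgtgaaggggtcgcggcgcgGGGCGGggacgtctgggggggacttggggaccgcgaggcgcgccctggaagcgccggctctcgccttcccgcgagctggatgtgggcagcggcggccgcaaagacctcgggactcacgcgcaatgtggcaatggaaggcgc

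The GC box occurred 3 times in the Lmbr1 promoter and once each in those of Sufu and Ptch1. It was present in 6 of the 7 promoters searched, Smo lacking it, and in 46.2% of the 21263 protein-coding promoters of the table. The NKX2-1 core was found in Sufu alone of the 7 and in 13.1% of all promoters. GACCACCCA, the core of the GLI motif, was in none of the 7 and in 0.179% of all promoters. Both strands were searched, and a match is a description of the letters and not of binding. The Ptch1 promoter was 76.3% G and C with 47 CpG pairs, against 62.0% and 21 for Lmbr1 and 56.3% and 12 for Sufu.

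Of the 107 regions, 30 were lower and 19 were higher in the knockouts at a limma adjusted p below 0.05, and 58 did not pass. In shares, 28.0% of the regions fell and 17.8% rose, beside 20.8% lower and 17.0% higher over all 83252 regions. The share of gains was near that of the genome, and the share of losses was above it. Together 45.8% of the regions were called, against 37.8% of all. Losses made up 61.2% of the calls at these genes and 55.1% of all calls. They made up 75.4% and 67.4% with the lists as deposited, and 53.3% and 45.9% with scores centred per library. All 5 knockout scores lay below all 6 control scores at 20 of the 107 regions, or 18.7% beside 12.1% of all. They lay above them at 14, or 13.1% beside 10.9% of all. By presence of a peak alone, Fisher's exact test could reach the threshold at 35 of the 107 regions. It called 6 as more often open in knockouts and 10 as more often open in controls. The same test called 23.3% and 23.9% of the 24733 regions of the genome that it could reach. Without any 1 of the 11 libraries, the count for controls was 4 to 6. With fewer libraries the same kind of split gives a larger p, so this fall does not measure how stable the regions are. A difference of at least 0.5 was called as a loss at 7 of the regions and as a gain at 5, which is 6.54% and 4.67% beside 2.44% and 3.83% of all regions. A peak was present in all 11 libraries at 37 regions, or 34.6% beside 43.9% of all, and 10 of these 37 fell and 9 rose. Over the whole series, 17.9% of the regions with a peak in all 11 libraries fell and 12.7% rose. Both are smaller shares than at these genes, a difference that was not tested. Peaks were seen in knockouts only at 7 regions and in controls only at 16, together 21.5% beside 19.2% of all. Such regions entered through a single group, so the counts over regions describe the set that passed and not every peak of these genes.

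**Figure D1:**
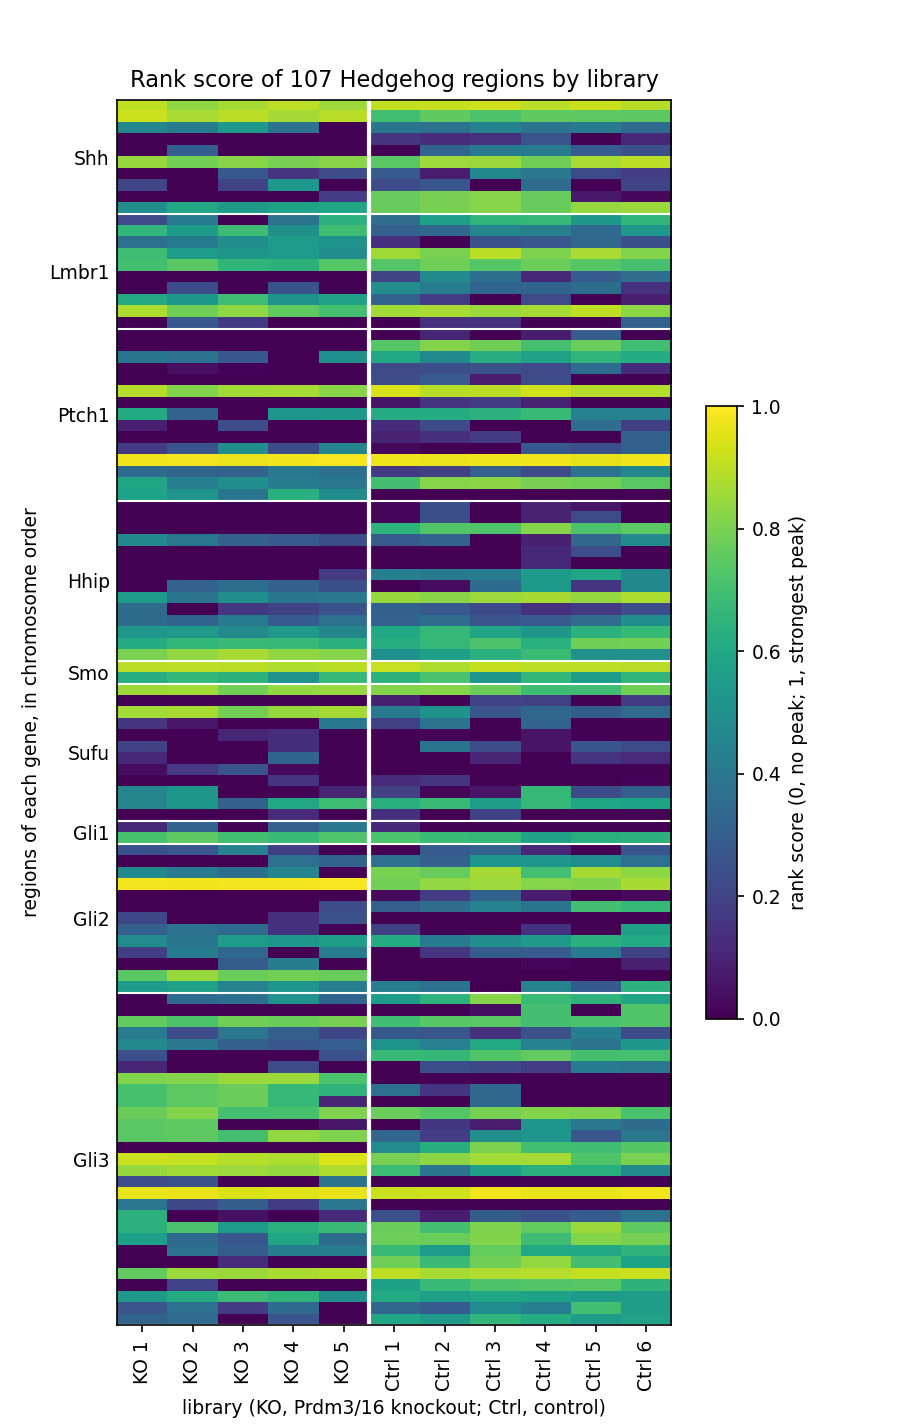
Rank score of each of the 107 regions (rows, in chromosome order within a gene) in the 5 knockout libraries (left) and the 6 control libraries (right); dark cells have no peak and yellow cells a peak among the strongest. Rows at 0 across 1 group are seen at every gene except Smo and Gli1, beside rows that are bright in all 11 libraries.

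Inside gene bodies lay 58.9% of these regions, beside 45.0% of the 75626 regions of the series within 100 kb of a gene, and within 1 kb of a gene end lay 14.0%, beside 27.5%; these shares were not tested. Losses were seen at 18 of the 63 regions in gene bodies, at 10 of the 29 between genes and at 2 of the 15 at gene ends. Gains were seen at 14 of the 63, 3 of the 29 and 2 of the 15. Among all regions of the same 3 kinds, 25.2%, 23.0% and 9.92% were lower and 19.4%, 19.6% and 6.75% higher. The genes differed in how many regions they held, from 29 at Gli3 to 2 each at Smo and Gli1. Of the 107 regions, 37 had the next region less than 1 kb away, and neighbours so close can share a peak.

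**Figure D2:**
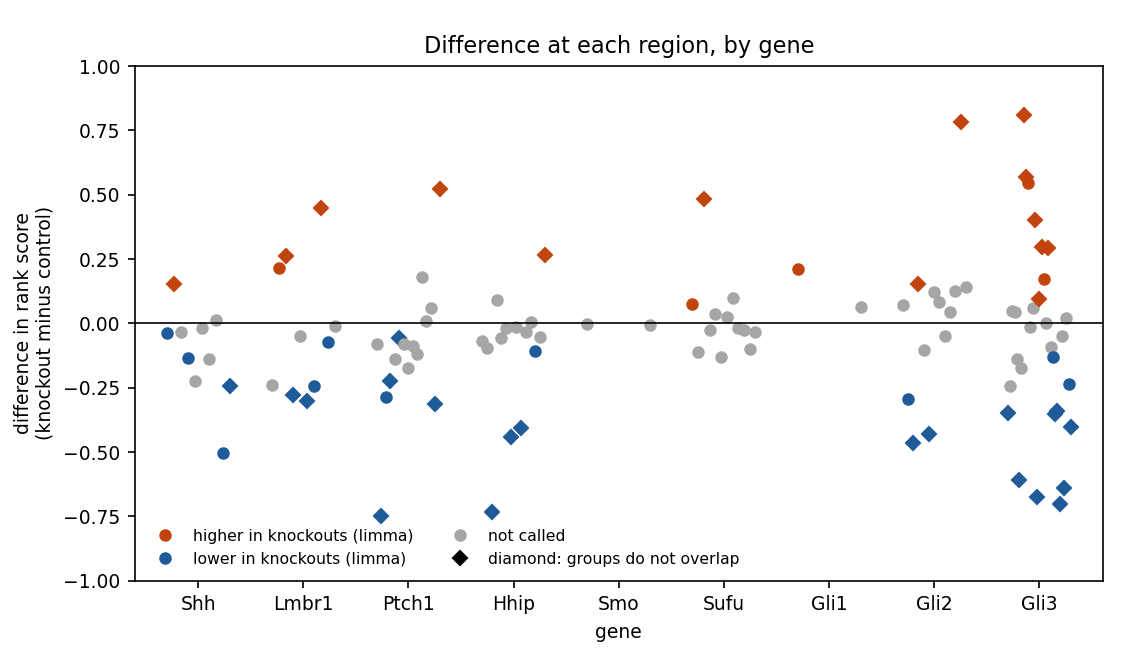
Difference in mean rank score, knockout minus control, for each region of the 9 genes, in chromosome order from left to right within a gene. Coloured points passed limma's threshold, diamonds mark groups that do not overlap, and the differences run from -0.75 at Ptch1 to 0.81 at Gli3.

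Shh, the ligand made by the lung epithelium, had 10 regions, of which 4 were lower and 1 was higher. The strongest in controls lay inside the gene, at chr5:28458883-28459282, 2043 bp from its lower end; Shh is transcribed from its upper end. The 5 knockout scores there were 0.906, 0.831, 0.868, 0.9 and 0.852, against a control range of 0.892 to 0.926 with a median of 0.911. The groups touched, and the difference of -0.04 (SE 0.0139) passed with a limma adjusted p of 0.0457. The call was lost in 14 other settings, 8 of which left out 1 library, any of control libraries 1 to 5 or knockout libraries 2, 3 and 5 (limma adjusted p = 0.0535 to 0.11). The window next to it, centred 576 bp away at chr5:28459459-28459858, went the other way, with 0.923, 0.874, 0.897, 0.867 and 0.894 in the knockouts and a control range of 0.696 to 0.756 (median 0.75). Every knockout exceeded every control there, and the difference was 0.15 (SE 0.0167, limma adjusted p = 7.07e-06). With overlapping peaks merged the pair formed 1 region that differed by -0.0117 and was not called (limma adjusted p = 0.379). All 11 libraries had a strong peak in the body of Shh.

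Beyond the upper end of Shh, 8 regions lay within 100 kb. The one nearest to that end, 2681 bp away at chr5:28469782-28470181, had scores of 0.461, 0.418, 0.537, 0.381 and 0 in the knockouts and 0.343 to 0.449 (median 0.386) in the controls. Apart from the fifth knockout library, which had no peak, the groups overlapped, and the difference of -0.03 did not pass (limma adjusted p = 0.786). A strong region 33954 bp away also overlapped between groups, at 0.814 ± 0.0229 in knockouts and 0.833 ± 0.0572 in controls (SD, n = 5 and 6). At 10761 bp no knockout had a peak, while controls reached 0.26 with a median of 0.137, a difference of -0.13 (limma adjusted p = 0.0301). That call was lost in 8 of the alternatives, among them the replicate block (limma adjusted p = 0.0735) and 6 settings without 1 library, control 1 or 4 or any of knockouts 1 to 4 (limma adjusted p = 0.0504 to 0.0539).

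The clearest loss near Shh lay 96382 bp from its upper end, at chr5:28563483-28563882. Knockouts had 0.496, 0.601, 0.545, 0.579 and 0.59, and controls 0.767 to 0.848 with a median of 0.807. No knockout reached the lowest control, and the difference was -0.24 (SE 0.0276, limma adjusted p = 1.01e-05). An overlapping set of peaks gave the window 563 bp nearer to the gene, where 3 knockouts had no peak and the others 0.00151 and 0.186, against a control median of 0.767. The lowest control, at 0.0203, fell among the knockouts, and the difference of -0.50 (SE 0.154, limma adjusted p = 0.0207) was not called with the lists as deposited (-0.119, limma adjusted p = 0.155). The remaining 3 regions, 28565 to 53974 bp away, differed by -0.22, -0.14 and 0.01 and did not pass. With the lists as deposited, those at 28565 and 52022 bp were called lower (-0.363 and -0.264, limma adjusted p = 0.00774 and 0.0324). The one at 28565 bp was called lower in 5 further settings, including without control 1 (-0.279) and without knockout 2 (-0.283), at limma adjusted p = 0.0101 to 0.0408, and the one at 52022 bp in 1 further setting (-0.251, limma adjusted p = 0.0302).

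Lmbr1 encodes a membrane protein and is known chiefly because an intron of it holds the enhancer that drives Shh in the limb bud, far from Shh itself. Of its 10 regions 4 were lower and 3 higher. At the gene start, chr5:29378309-29378708, which covers the promoter printed above, the knockouts had 0.878, 0.785, 0.832, 0.757 and 0.706 and the controls 0.827 to 0.903 (median 0.863). Libraries 1 and 3 of the knockouts lay within the control range, and the difference of -0.07 (SE 0.0262) passed narrowly (limma adjusted p = 0.0453). That call was lost in 12 other settings, among them limma without its trend and robust options (adjusted p = 0.0888) and 8 without 1 library, any of controls 1 to 5 or knockouts 2, 4 and 5 (limma adjusted p = 0.0596 to 0.105).

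Just inside the gene, centred 813 bp from the start region, the knockouts had 0.602, 0.533, 0.688, 0.515 and 0.578, against 0 to 0.317 (median 0.135) in the controls. The groups did not overlap, and the difference was 0.45 (SE 0.0682, limma adjusted p = 0.000141). Its direction depended on how neighbouring peaks were treated, since merging overlapping peaks joined it to the start region and gave -0.0715 (limma adjusted p = 0.0361). It was also below 0, and not called, when peaks were ranked by fold enrichment (-0.0724) or when the lists were cut to 0.5 of this length (-0.309). Deeper in the gene, the region at chr5:29270905-29271304 fell most clearly. Knockouts scored 0.69, 0.547, 0.529, 0.547 and 0.489, and controls 0.799 to 0.896 (median 0.836), with a difference of -0.28 (SE 0.0346, limma adjusted p = 2.25e-05) and no overlap.

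A weaker region at chr5:29343338-29343737 had no peak in any knockout and scores of 0.111 to 0.48 (median 0.322) in the controls, a difference of -0.30 (limma adjusted p = 0.00237). The region 2156 bp below the one just inside the gene start differed by -0.24 (limma adjusted p = 0.0222), with overlapping groups. It was not called with ranking by fold enrichment (limma adjusted p = 0.431) or without knockout 1, 3 or 5 (limma adjusted p = 0.0524 to 0.0565). In the opposite direction, 2 regions nearer the 3′ end of the gene were higher, at 0.616 ± 0.089 in knockouts against 0.401 ± 0.0882 in controls, and at 0.467 ± 0.0764 in knockouts against 0.205 ± 0.118 in controls (SD, n = 5 and 6). Their differences were 0.21 and 0.26 (limma adjusted p = 0.00805 and 0.00703), and neither was called with the lists as deposited (limma adjusted p = 0.099 and 0.0987). The other 3 regions of Lmbr1 differed by -0.24, -0.05 and -0.01 and did not pass. With the lists as deposited, the first and second of these were called lower (-0.281 and -0.074, limma adjusted p = 0.0406 and 0.0205). The first was also called lower with a −log10 q of at least 5 (-0.286, limma adjusted p = 0.028), without control 1 (-0.283, limma adjusted p = 0.0388) and without knockout 5 (-0.318, limma adjusted p = 0.0134), and the second in 2 further settings (limma adjusted p = 0.0254 and 0.0424).

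Between Shh and Lmbr1 lies a wide stretch that holds known long-range enhancers of Shh, whose positions are not in the annotation used here. Of the 26 regions there that belong to no member, because Rnf32 is nearer or no gene lies within 100 kb, 8 were lower and 7 higher. This is 30.8% and 26.9% of them, beside 20.8% and 17.0% of all regions. The following order was noticed after the values were seen and was not tested. Above the upper end of Shh, each called region up to 289939 bp was a loss, those nearer to Shh included. The first gain lay at 315878 bp, and losses were called beyond it too. The largest, chosen after their values were seen, were a gain 437391 bp from Shh (0.717 ± 0.0519 in knockouts, 0.118 ± 0.183 in controls), a gain at 315878 bp (0.575 ± 0.113 in knockouts, 0.0176 ± 0.0302 in controls) and a loss at 289939 bp (0.167 ± 0.199 in knockouts, 0.674 ± 0.0274 in controls; SD, n = 5 and 6 throughout). Their differences were 0.60, 0.56 and -0.51, with limma adjusted p of 5.32e-05, 5.53e-06 and 1.46e-04, and in none did the groups overlap. A loss at 332410 bp had no peak in any knockout and 0.481 ± 0.106 in the controls (SD, n = 6; limma adjusted p = 2.17e-05).

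**Figure D3:**
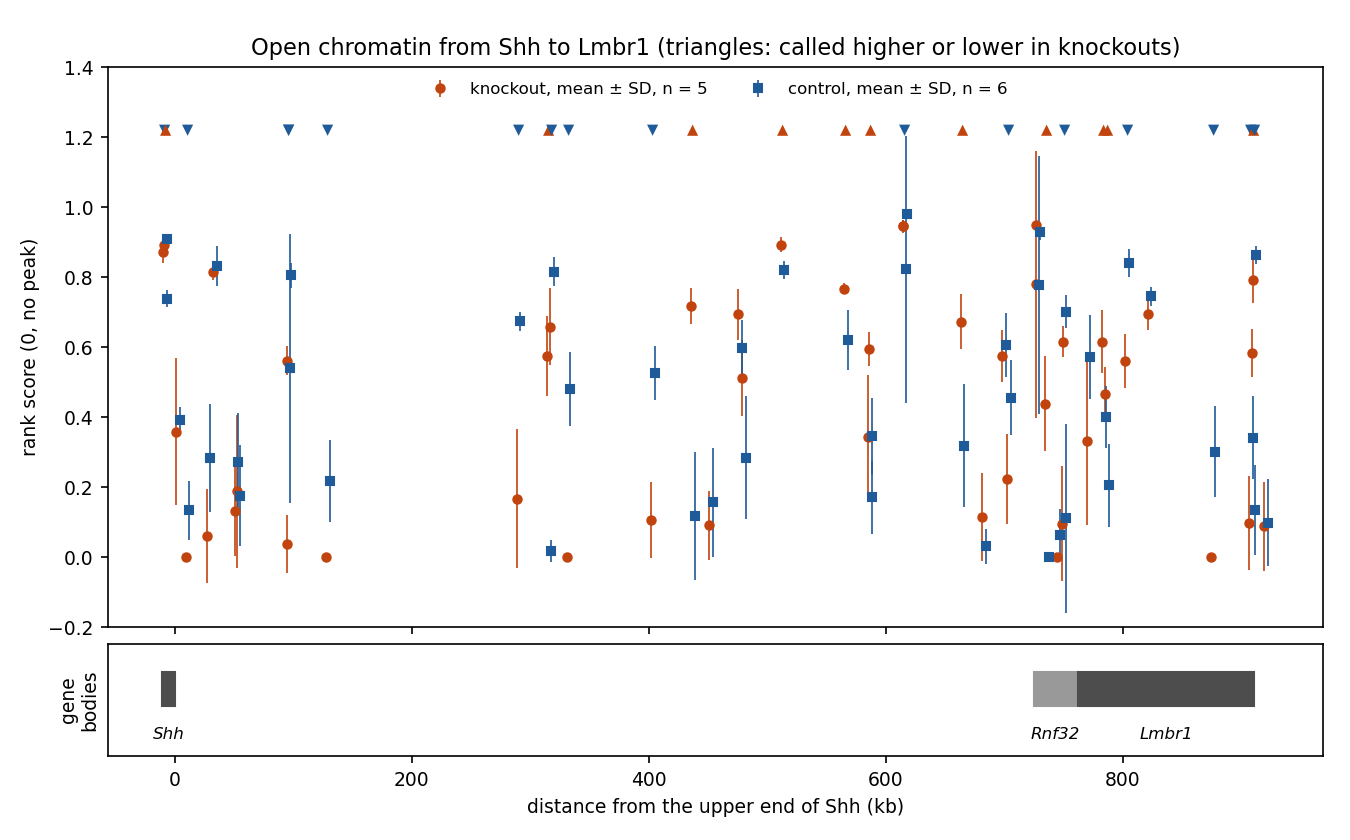
Mean rank score ± SD of each region from Shh to just past Lmbr1, against its distance from the upper end of Shh, in knockouts (circles, drawn left) and controls (squares, drawn right), with the gene bodies below. Triangles on the top line mark regions called higher (up) or lower (down) in knockouts. Above the upper end of Shh, the called regions up to 289939 bp are losses, and from 315878 bp on both gains and losses appear. This order was noticed after the values were seen and was not tested.

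Ptch1, the receptor for SHH and itself a target of the pathway, had 15 regions, of which 5 were lower and 1 was higher. The largest loss among all 107 regions lay 771 bp beyond its 3′ end, at chr13:63507158-63507557. No knockout had a peak there, while the controls ran from 0.695 to 0.81 with a median of 0.754. The difference was -0.75 (SE 0.0442, limma adjusted p = 3.64e-08). A region 69145 bp upstream of the gene fell in part, with 0.591, 0.432, 0.494, 0.421 and 0.392 in the knockouts against 0.7 to 0.826 (median 0.791) in the controls. All knockouts were below all controls, by 0.31 on average (difference -0.31, SE 0.0397, limma adjusted p = 2.91e-05). Within the gene, the region at chr13:63514557-63514956 differed by -0.28 (limma adjusted p = 0.00985), and the lowest control (0.474) lay below the highest knockout (0.501). It was not called with ranking by fold enrichment (limma adjusted p = 0.0761).

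The gain at Ptch1 was 92233 bp upstream, at chr13:63665693-63666092, centred 23088 bp from the region that fell in part. Knockouts had 0.579, 0.522, 0.389, 0.633 and 0.49, and no control had a peak (difference 0.52, SE 0.054, limma adjusted p = 4.46e-06). The call was lost with the lists cut to 0.5 of this length (limma adjusted p = 0.108). At the annotated start of the gene the nearest region, 468 bp away, had 0.171, 0.259, 0.496, 0.232 and 0.456 in the knockouts and 0 to 0.31 (median 0.134) in the controls, and did not pass (difference 0.18, limma adjusted p = 0.114). The strongest region of Ptch1, singled out after its values were seen, lay upstream of that start, still in the gene body, at chr13:63567815-63568214 and scored 0.98 ± 0.00535 in knockouts and 0.972 ± 0.00662 in controls (SD, n = 5 and 6). Its difference of 0.01 did not pass (limma adjusted p = 0.32). At the upper end of the gene body, the region chr13:63573407-63573806 had a peak in every library. It scored 0.351 ± 0.0363 in knockouts and 0.291 ± 0.117 in controls (SD) and did not pass (difference 0.06, limma adjusted p = 0.475).

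Hhip encodes a membrane-anchored protein that binds Hedgehog ligands and keeps them from PTCH1. Of its 14 regions 4 were lower and 1 was higher. The second-largest loss of the whole set lay 19976 bp beyond its 3′ end, at chr8:79945475-79945874. All 5 knockouts were without a peak, and the controls had 0.648 to 0.818 (median 0.726), a difference of -0.73 (SE 0.0461, limma adjusted p = 5.87e-08). Inside the gene, the region at chr8:80049194-80049593 scored 0.553, 0.386, 0.499, 0.389 and 0.4 in the knockouts and 0.823 to 0.877 (median 0.851) in the controls. The groups were far apart for a region that stayed open in every library, with a difference of -0.41 (SE 0.034, limma adjusted p = 6.45e-07). At chr8:79982637-79983036 a single knockout library, the fifth, had a peak (0.171), while all controls lay between 0.412 and 0.589, a difference of -0.44 (SE 0.0579, limma adjusted p = 3.86e-05).

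The gain at Hhip lay 62476 bp upstream, at chr8:80120536-80120935. Its scores were 0.799, 0.839, 0.869, 0.835 and 0.817 in the knockouts and 0.503 to 0.682 (median 0.542) in the controls. Every knockout was above every control, and the difference was 0.26 (SE 0.0357, limma adjusted p = 5.09e-05). The start of Hhip did not share in these differences. Its knockouts had 0.354, 0.321, 0.414, 0.291 and 0.369 and its controls 0.26 to 0.499 (median 0.337), overlapping throughout (difference 0.00, limma adjusted p = 0.958). Hhip also had fewer used peaks per library, 9 to 11 in the knockouts and 13 to 17 in the controls, from lists of equal length. Ptch1 had 8 to 13 in the knockouts and 11 to 14 in the controls. Over the 9 genes the range was 77 to 89 used peaks in the knockouts and 91 to 97 in the controls, given as a description with no test.

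**Figure D4:**
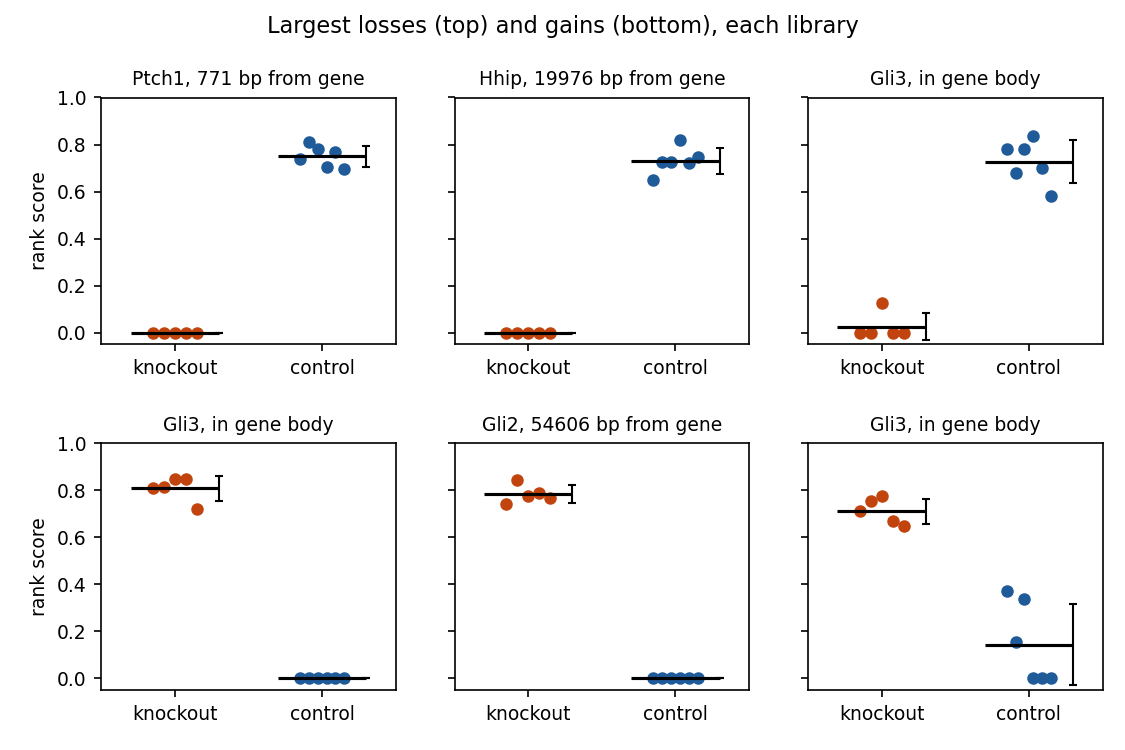
Rank score of every library at the 3 largest losses (top) and the 3 largest gains (bottom) of the 107 regions, knockouts left and controls right; lines are means and bars SD (n = 5 and 6). At 4 of the 6 regions every library of one group is at 0, and in none do the groups overlap.

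Smo, the membrane protein that passes the signal on, had 2 regions, both at its start and neither called. The first, chr6:29735294-29735693, held 0.897, 0.9, 0.897, 0.88 and 0.897 in the knockouts and 0.876 to 0.912 (median 0.9) in the controls. The groups overlapped and differed by less than 0.01, with an SE of 0.00943 (limma adjusted p = 0.76). The second, 773 bp away, scored 0.623 ± 0.0634 in knockouts and 0.628 ± 0.0702 in controls (SD, n = 5 and 6).

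Sufu, which holds GLI proteins inactive in the cytoplasm, had 12 regions with 2 gains and no loss. Its start region, chr19:46396647-46397046, over the promoter printed above, scored 0.859, 0.86, 0.788, 0.842 and 0.847 in the knockouts and 0.688 to 0.819 (median 0.78) in the controls. Knockout library 3 lay inside the control range, and the difference of 0.08 (SE 0.027) passed with a limma adjusted p of 0.038, a call lost in 10 other settings, 7 of them without 1 library, any of controls 3 to 5 or knockouts 1, 2, 4 and 5 (limma adjusted p = 0.0503 to 0.0824). The larger gain was in the gene body, at chr19:46445647-46446046. Knockouts reached 0.86, 0.868, 0.791, 0.844 and 0.867, against 0.264 to 0.51 (median 0.341) in controls, so the groups were well separated. The difference was 0.48 (SE 0.0446, limma adjusted p = 1.51e-06). The other 10 regions overlapped between groups and did not pass limma's threshold. One of them, at chr19:46471620-46472019, had a peak in 4 knockouts and in no control and was called by presence (Fisher's exact test, adjusted p = 0.0321). Its knockout scores were weak, at 0.034, 0.167, 0.263, 0.0237 and 0, and a control peak below the cut of its list would not have been used.

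Gli1, an activator whose own transcription is a usual readout of the pathway, had 2 regions, both in its body. The stronger, chr10:127338855-127339254, had 0.71, 0.753, 0.698, 0.679 and 0.725 in the knockouts and 0.577 to 0.716 (median 0.654) in the controls. The groups overlapped and the difference of 0.06 did not pass (limma adjusted p = 0.0989). The weaker had 0.113, 0.319, 0, 0.307 and 0.405 in the knockouts and a peak in a single control (0.112). It was called higher by 0.21 (SE 0.0692, limma adjusted p = 0.0285), and the call was lost in 10 other settings, among them the lists as deposited (limma adjusted p = 0.0642) and the replicate block (limma adjusted p = 0.0769). Of the 10, 7 left out 1 library, control 2, 3, 4 or 6 or knockout 2, 4 or 5 (limma adjusted p = 0.0505 to 0.063).

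Gli2, the main activator of the response to Hedgehog, had 13 regions, 3 lower and 2 higher. The second-largest gain of the set lay 54606 bp upstream of it, at chr1:119109011-119109410. Knockouts had 0.743, 0.845, 0.777, 0.787 and 0.768, and no control had a peak (difference 0.78, SE 0.0448, limma adjusted p = 2.94e-08). In the gene body, the region at chr1:118913752-118914151 stood among the strongest peaks of every knockout, with 0.983, 0.979, 0.981, 0.981 and 0.99, against 0.787 to 0.868 (median 0.826) in the controls. It rose by 0.15 (SE 0.0134, limma adjusted p = 9.16e-07), with no overlap.

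Centred 8444 bp away in the same gene body, the region at chr1:118905308-118905707 fell. It had 0.471, 0.416, 0.36, 0.455 and 0 in the knockouts and 0.702 to 0.865 (median 0.813) in the controls, a difference of -0.46 (SE 0.0738, limma adjusted p = 0.00021). The fifth knockout library had no peak there, and the other 4 were still below every control. The body region at chr1:118982409-118982808 had a peak in a single knockout (0.235) and in all controls (0.302 to 0.7), a difference of -0.43 (limma adjusted p = 0.00111). A distal region 61367 bp beyond the 3′ end differed by -0.29 (limma adjusted p = 0.0137) with overlap. The start of Gli2 overlapped between groups, at 0.501 ± 0.0708 in knockouts and 0.551 ± 0.0881 in controls (SD, n = 5 and 6; limma adjusted p = 0.478).

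Gli3, which in the absence of ligand is cut into a repressor, held 29 regions, the most of the 9 genes. Of these 10 were lower and 8 higher. Every knockout lay below every control at 8 of the 29 regions and above at 6, beside 12.1% and 10.9% of all regions. Most of the called regions were inside its body. The largest gain of the set lay there, at chr13:15527563-15527962, with 0.809, 0.814, 0.849, 0.849 and 0.718 in the knockouts and no peak in any control (difference 0.81, SE 0.0463, limma adjusted p = 2.96e-08). Farther on, at chr13:15537199-15537598, knockouts had 0.71, 0.752, 0.773, 0.669 and 0.649 and controls 0 to 0.369 (median 0.0765). The groups were apart, by 0.57 (SE 0.0782, limma adjusted p = 6e-05). The window centred 450 bp from it shared its peak in 4 knockouts, differed by 0.55 (limma adjusted p = 0.00194) and was not called with the lists as deposited (0.0086, limma adjusted p = 0.94).

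Gli3 also held losses of like size, interleaved with gains along the gene. At chr13:15544063-15544462 no knockout had a peak and controls had 0.482 to 0.804 (median 0.696), a difference of -0.67 (SE 0.0592, limma adjusted p = 1.01e-06). Nearer the 3′ end, chr13:15691844-15692243 had a peak in a single knockout (0.128) against 0.579 to 0.836 (median 0.741) in controls, a difference of -0.70 (SE 0.0566, limma adjusted p = 4.81e-07). Likewise chr13:15714867-15715266 had a peak in a single knockout (0.202) against 0.572 to 0.74 (median 0.699) in controls, a difference of -0.64 (SE 0.0568, limma adjusted p = 1.08e-06). The calls at Gli3 thus ran in both directions within a single gene body, as they did at Lmbr1 and Gli2. They did so too at the neighbouring windows in the body of Shh, which formed 1 uncalled region when peaks were merged.

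At the start of Gli3, chr13:15463682-15464081, the knockouts had 0.411, 0.227, 0.398, 0.303 and 0.209 and the controls 0.138 to 0.431 (median 0.256). The groups overlapped and the difference of 0.05 did not pass (limma adjusted p = 0.61). A stronger window 288 bp before the gene scored 0.767 ± 0.0293 in knockouts and 0.72 ± 0.0211 in controls (SD). It did not pass (limma adjusted p = 0.0924). Another start window, chr13:15464166-15464565, differed by -0.14 and did not pass either (limma adjusted p = 0.0729). The strongest region of the gene, singled out after its values were seen, at chr13:15602692-15603091, scored 0.958 ± 0.00876 in knockouts and 0.956 ± 0.0259 in controls (SD, n = 5 and 6; limma adjusted p = 0.888).

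Beyond these genes, 57 others of the pathway and its surroundings had 325 regions, of which 66 were lower and 61 higher. Those are 20.3% and 18.8%, close to the 20.8% and 17.0% of all regions. The 39 regions of receptors and co-receptors, among them Cdon, Boc, Gas1 and Lrp2, gave 12 losses and 10 gains. The 43 of ligands and of their processing and release gave 7 losses and 14 gains, and the 103 of ciliary and cytoplasmic regulators 19 losses and 14 gains. The 42 of targets in lung mesenchyme gave 8 losses and 6 gains, the 61 of other targets 12 losses and 10 gains, and the 37 of neighbours of Shh and Lmbr1 8 losses and 7 gains. These lists share Rnf32 with the stretch between Shh and Lmbr1.

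Named by the size of a called difference, 8 of these genes stood out: Mycn, Disp1, Gpr161, Cdon, Boc, Mgrn1, Lrp2 and Gsk3b. Near Disp1, which releases lipid-bearing Hedgehog from the cells that make it, a region 7636 bp from the gene had 0.699, 0.842, 0.69, 0.841 and 0.817 in the knockouts and a peak in a single control (0.143). It rose by 0.75 (SE 0.0542, limma adjusted p = 1.74e-07), and 2 regions in the gene body rose by 0.68 and 0.59 from no peak in any control (limma adjusted p = 1.87e-07 and 7.61e-07). Cdon, a co-receptor, had both a gain of 0.72 at 61388 bp (limma adjusted p = 3.32e-07) and a loss of 0.67 in its body (difference -0.67, limma adjusted p = 2.41e-07). Boc, its relative, had a distal loss of 0.72 (difference -0.72, limma adjusted p = 7.25e-07). Lrp2, an endocytic co-receptor, had a loss with overlap in its body (-0.66, limma adjusted p = 0.00381) and gains of 0.57 and 0.56 (limma adjusted p = 2.52e-06 and 2.80e-05).

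The body of Gpr161, a ciliary receptor that restrains the pathway, held a region with 0.746 ± 0.0331 in knockouts and no peak in any control (SD, n = 5; difference 0.75, limma adjusted p = 4.18e-08). A region of Gsk3b, a kinase that marks GLI proteins for processing, rose by 0.66 (limma adjusted p = 1.79e-06), and its close neighbour, which shares peaks with it, by 0.60. Mgrn1, a ubiquitin ligase that lowers SMO at the cell surface, had a loss of 0.68 (difference -0.68, limma adjusted p = 2.14e-07) with no peak in any knockout. Mycn, a target in several tissues, had the largest loss of this list, 84090 bp from the gene, with no peak in any knockout and 0.696 to 0.853 (median 0.762) in controls (difference -0.77, SE 0.0473, limma adjusted p = 4.94e-08). It had another at 25131 bp (-0.59, limma adjusted p = 3.51e-06).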

How the data were processed

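ATAC-seq peak lists of 11 libraries (5 Prdm3/16KO, 6 Control) were used as deposited, 1 list per library with no pooling of replicates. Coordinates are mm10; MACS2, DiffBind 3 and deepTools are named in the submitters' processing notes without roles, and the sources used here do not give the aligner or the options. Each deposited peak carries a score, a fold enrichment (a ratio) and a −log10 p and −log10 q by the authors; the deposited score was not used, and fold enrichment and −log10 q served as alternatives. Depth is unknown and no interval of counting error is given.

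Each list was cut to its 72935 strongest peaks by the authors' −log10 p, and ranks were turned into scores near 1 for the strongest and 0 without a peak. The weakest peak used had a −log10 p of 2.0 to 14.0 in knockouts and 6.59 to 35.65 in controls. Windows of 400 bp were set on summits, strongest first, and peaks overlapping one by at least 100 bp counted for it. The 83252 windows with a peak in at least 3 libraries were tested with limma (version 3.58.1, R 4.3.3; with trend and robust variance, Benjamini-Hochberg over all windows, threshold 0.05), and presence was tested with Fisher's exact test, two-sided, adjusted likewise over the 24733 windows whose margins allow a p below 0.05. The fits were tested on simulated data. Genes were the 21900 protein-coding genes of the RefSeq table of GRCm38.p6, which gives gene bodies and no exons; strand came from the promoter table. Genes and lists were chosen with earlier results of these data known. Named regions were, for each of the 9 genes, the one at or nearest the start and up to 3 called in each direction by size, every region of Shh and Lmbr1, and up to 8 other pathway genes with a called difference of at least 0.5. For Shh and Gli1, absent from the promoter table, no start was fixed and the regions nearest both gene ends were used. The alternatives changed the list length, ranking, overlap, filter, merging, centring, distance and limma options, left out each library, or added a replicate block. At most 0.016% of peaks were identical between any pair of lists, so no library was counted as a repeat. Deletion of Prdm3 and Prdm16 could not be checked from the peaks.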

Additional observations from a re-analysis of the deposited data

Results flagged for a closer look

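Among 88 groups of scores examined at the named regions, 12 had a library far from the others. The rule flags about 1 in 20 groups by chance when scores vary continuously. Here many scores stand for the absence of a peak, and a group with a peak in a single library is always flagged. Some groups also come from neighbouring windows that share peaks. The 12 therefore cannot be compared with that rate, and whether they exceed chance was not tested. Of the 12, 5 concerned the fifth knockout library, whose list was the shortest; whether list length had a part in this was not tested.

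In that library the score was 0.0 at the Gli2 body region chr1:118905308-118905707, where the nearest other knockout had 0.36. It was 0.105 at the second window of the Gli3 gain, against 0.669 in the nearest other knockout. It had the only knockout peak at the Gli2 body region chr1:118982409-118982808 (0.235) and at the Hhip body region chr8:79982637-79983036 (0.171). At the window 95819 bp from Shh it had 0.186, and the nearest other knockout 0.00151.

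The second knockout library had the only knockout peak at the Gli3 region chr13:15714867-15715266 (0.202) and at the region 28565 bp from Shh (0.299). Knockout library 3 had the only one at the Gli3 region chr13:15691844-15692243 (0.128) and the lowest knockout score at the Sufu start, 0.788, the next being 0.842. The fourth was lowest at the Smo start, 0.88 against 0.897. Among controls, the first had the only peak at the weaker Gli1 region (0.112) and library 3 the only one at the second window of the Gli3 gain (0.336).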

How the results depend on the processing

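Of 34 named regions that passed the test, 20 kept their call and direction in every alternative run on them. Over all of their 794 settings, 721 kept both, 69 lost the call and 4 reversed. The 4 were the region just inside the Lmbr1 start, at -0.309 with lists cut to 0.5 of the length, -0.0724 when ranked by fold enrichment and -0.0715 with peaks merged, and the second Shh body window, at -0.0117 with peaks merged; merging joins these windows to their neighbours, and for the other 2 settings the cause was not tested. Of the settings for the 14 regions not called, 15 of 323 gave a call in the same direction.

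The counts for the 9 genes moved past 1.5 times in some settings. With the lists as deposited, presence called 16 regions as more often open in controls. It called 4 as more often open in knockouts, a count that did not move past 1.5 times. Lists cut to 0.5 of the length, which leave 53 member regions and 42012 in all, gave 12 member regions higher, 33 lower and 30 higher at the other pathway genes, 4 lower between Shh and Lmbr1, and 8979 lower and 8253 higher over all regions. Requiring a peak in 6 libraries gave 1 member region more often open in knockouts, 37 higher at the other pathway genes and 8350 higher over all regions. With 5 knockout libraries, that filter removes every region with a peak in knockouts only and keeps those with a peak in all 6 controls. A fall in gains was thus built into it. Within 20 kb of a gene the other pathway genes had 43 losses. Leaving out 1 library at a time gave 25 to 30 member regions lower and 16 to 20 higher, and 4 to 6 more often open in controls and 4 to 5 more often open in knockouts by presence. The other pathway genes then had 57 to 64 losses and 54 to 59 gains, the stretch between Shh and Lmbr1 6 to 8 and 7 to 9, and all regions 15506 to 17411 and 12955 to 14260. The counts by presence fall at least in part because fewer libraries give a larger p for the same split.

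The balance of losses and gains depended on scaling (75.4% losses among the 9 genes' calls with the lists as deposited, 53.3% with centred scores). Same-numbered libraries of the groups showed no clear joint deviation (correlations -0.0234 to 0.139). Of the 5 knockout libraries, 2 correlated best with the control of their own number. So few correlations cannot exclude that the numbers mark pairs. With a replicate block, 25 member regions were lower and 17 higher. Depth is not known, and a score of 0 is a peak not among those used, not closed chromatin.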
